A study of Mus musculus with 8 samples.

Results

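Elastic fibres and their microfibrils were followed through 10 mouse genes listed by symbol: the elastin gene Eln, the fibrillins Fbn1 and Fbn2, the fibulins Fbln1, Fbln2 and Fbln5, Emilin1, and the latent TGF-beta binding proteins Ltbp1, Ltbp2 and Ltbp3. All 10 were found once each among the 18306 genes of the deposited table, and all 10 were among the 11844 genes that held enough counts to be tested. The cells were C3H10T1/2, an established mesenchymal line of mouse embryo origin. They were plated in 10% serum, kept for 24 h in medium without serum, and then given either 5 µM sphingosine 1-phosphate (S1P, a lipid that acts on G protein-coupled receptors) or vehicle (0.1% fatty acid-free bovine serum albumin) for a further 24 h. Each group has 4 libraries, replicates 1 to 4 for vehicle and 5 to 8 for S1P. All came from a single cell line used within 10 passages of purchase. No label says that replicates are separate cultures, and the p-values measure the spread between these libraries, which may be technical.

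An elastic fibre is built on a scaffold of fibrillin microfibrils, onto which cells deposit tropoelastin, the product of Eln. Fibulins and Emilin1 sit in the elastin core or where it meets the microfibrils, and lysyl oxidases then crosslink the elastin into a lasting polymer. Latent TGF-beta binding proteins are relatives of the fibrillins that lie on the same microfibrils, and some of them hold TGF-beta there in an inactive form. Mesenchymal cells such as fibroblasts and smooth muscle cells make most of this material.

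Of the 10 genes, Fbn2 and Ltbp2 fell after S1P and none rose past the threshold. Fbn2 fell 2.44-fold and Ltbp2 2.19-fold. The call rule was a Benjamini-Hochberg adjusted p under 0.05 in edgeR's quasi-likelihood test, adjusted over all tested genes, and by this rule 2.9% of all tested genes were lower and 5.6% higher. At an unadjusted p under 0.05, 4 of the 10 genes were lower and 1 was higher, where 11.7% of all tested genes were lower and 13.2% higher. DESeq2 and limma-voom likewise called 2 of the 10 lower and 0 higher after adjustment. Over all genes DESeq2 called 797 lower and 941 higher, and limma-voom 340 lower and 709 higher. The log2 fold change (S1P minus vehicle) was negative for 7 genes and positive for 3, with a median of -0.66 over the 10 genes and -0.04 over all tested genes. Of all tested genes, 53.9% had a negative value. The S1P libraries lay below all vehicle libraries for Fbn2, Ltbp2 and Ltbp3 and above them for Fbn1. Over all tested genes the S1P libraries lay wholly below vehicle in 7.21% and wholly above in 11.9%. The values are from bulk RNA, so fewer cells of a type and less RNA per cell cannot be told apart.

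**Figure D1:**
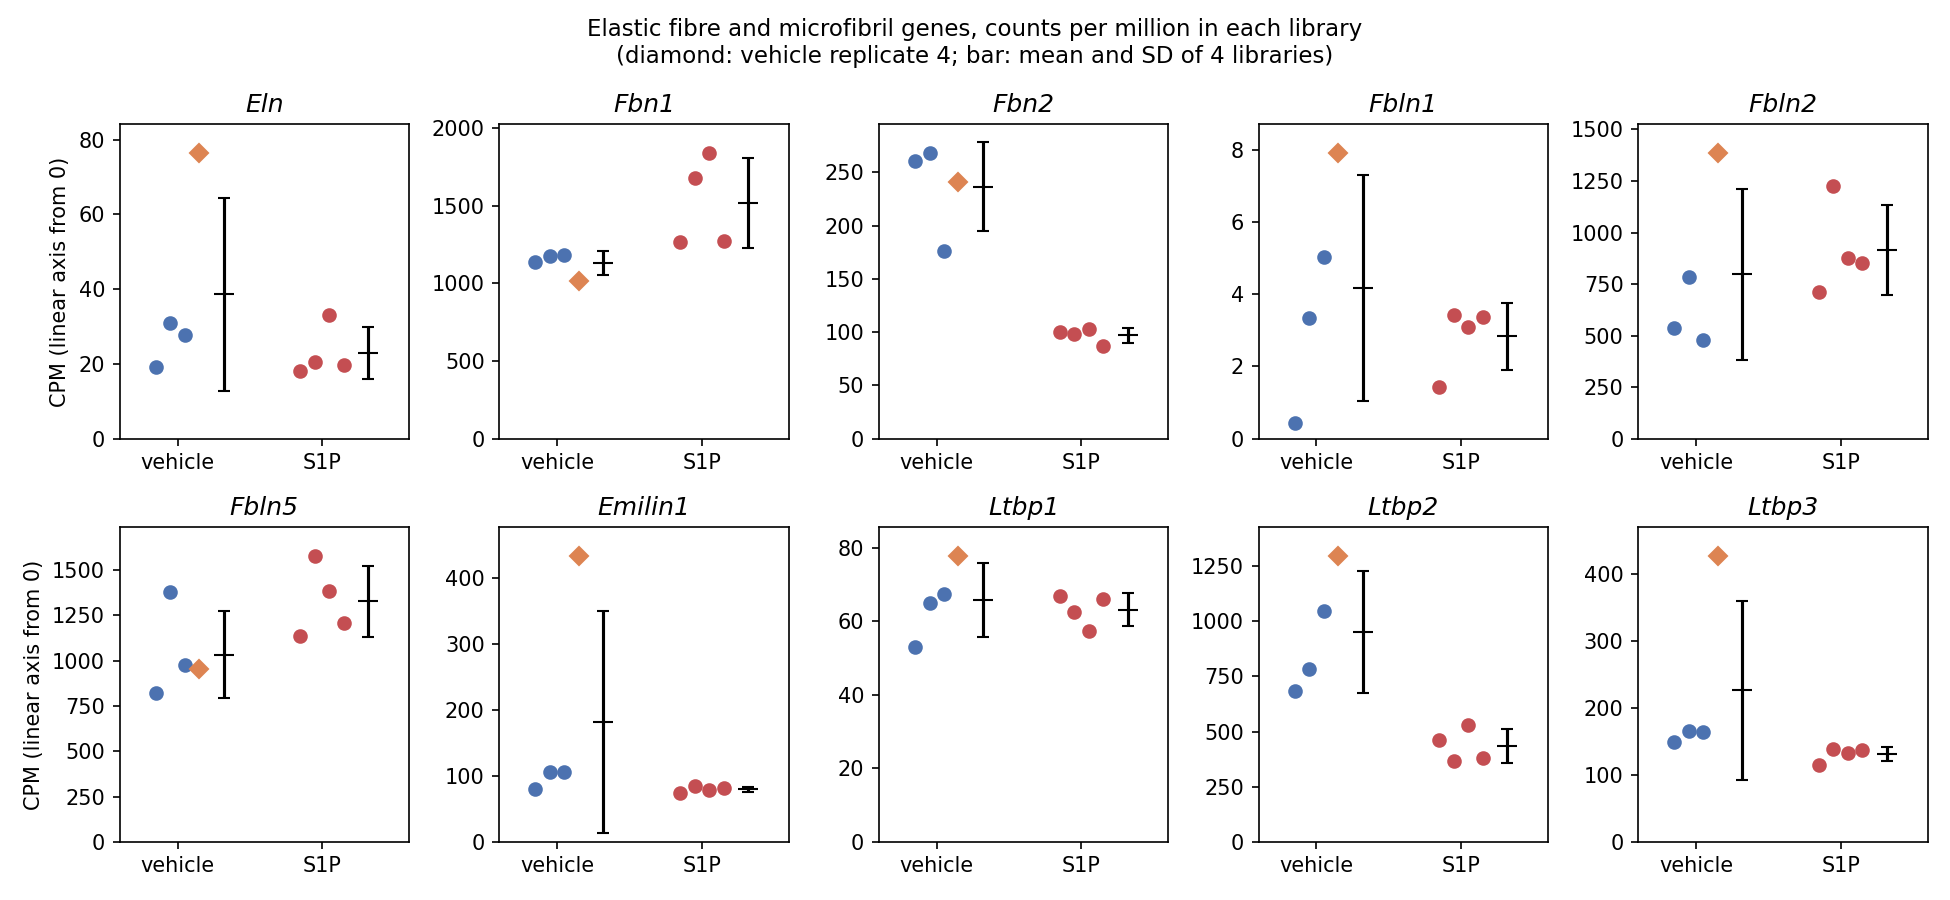
Abundance in CPM (counts scaled to a common library size; linear axes from 0) of the 10 genes in each library, with the mean and SD of 4 libraries per group; diamonds mark vehicle replicate 4. The S1P libraries sit between 87.0 and 103 CPM for Fbn2 and between 366 and 530.0 CPM for Ltbp2, below every vehicle library, whereas vehicle replicate 4 stands far above all others for Eln, Emilin1 and Ltbp3.

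The libraries were of nearly equal size, with 13750303 to 13761544 counts each. Levels are given in CPM, counts scaled to a common library size after TMM normalisation, so that values of a gene can be compared between libraries. All 12 mesenchymal markers looked up (Col1a1, Col3a1, Pdgfra, Prrx1 and others) passed the count filter, and their summed level was 28099.7 to 34397 CPM in vehicle and 25215 to 32004 CPM after S1P. Of the other lists, 3 of 6 markers of mature smooth muscle (Myh11, Myocd and Des) stayed below 1 CPM in every library, and the list summed to 29.7 to 88.7 CPM in vehicle and 27.0 to 41.9 CPM after S1P. The same held for 4 of the 5 endothelial markers found (Pecam1, Cdh5, Kdr and Vwf; sum 36.5 to 76.9 and 17.4 to 44.0 CPM), for 1 of 3 fat markers found (Adipoq; 24.9 to 44.3 and 16.8 to 39.3 CPM) and for 1 of 3 bone markers found (Sp7; 45.7 to 57.8 and 38.0 to 62.1 CPM). Blood cell markers summed to at most 1.92 CPM, and epithelial markers to at most 2.83 CPM. All 3 cartilage markers found were expressed, with a sum of 155 to 699 CPM in vehicle and 211 to 362 CPM after S1P. None of the markers looked up passed the test between the groups. Vehicle replicate 4 stood apart from the other libraries, and its difference from vehicle replicates 1 to 3 rose with GC content. Genes were split into 5 classes of equal size by the GC content of their longest coding transcript (GENCODE M21). In the class with the highest GC content (55.6% to 68.7%) this library was higher by a median of 1.06 (log2), and in the class with the lowest (33.1% to 44.1%) it was lower, with a median of -0.53. Of the 10 genes, 5 have a transcript in the highest class: Eln at 58.8%, Fbln2 at 57.0%, Emilin1 at 61.1%, Ltbp2 at 58.5% and Ltbp3 at 61.5%. Values without this library are therefore given beside the results that it moves.

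**Figure D2:**
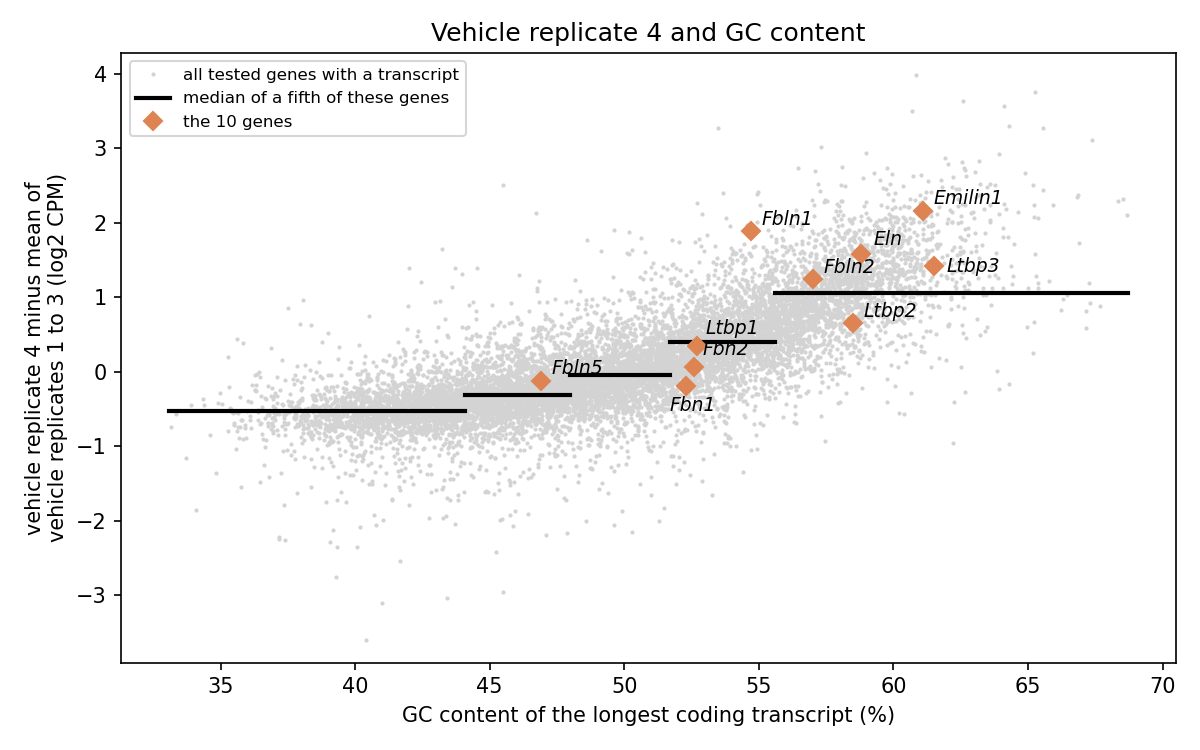
Difference between vehicle replicate 4 and the mean of vehicle replicates 1 to 3 (log2 CPM, vertical axis) against the GC content of the longest coding transcript (percent, horizontal axis) for all tested genes with a transcript (grey), with the median of each of 5 GC classes (black bars) and the 10 genes (diamonds). Emilin1, Eln and Ltbp3, at 58.8% to 61.5% GC, lie at 1.42 to 2.16, and Fbn1, Fbn2 and Fbln5, at 46.9% to 52.6% GC, lie between -0.20 and 0.06. Fbln2 (57.0% GC) lies at 1.24 and Ltbp1 (52.7%) at 0.34. Fbln1 lies high at 1.89 with 54.7% GC, and Ltbp2 only at 0.65 with 58.5% GC.

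Eln (chromosome 5, 135179451 to 135223311 in mm9, the build of the deposited coordinates) encodes tropoelastin. It held 19.2, 31.0, 27.7 and 76.5 CPM in vehicle replicates 1 to 4, and 18.2, 20.4, 33.2 and 19.8 CPM in S1P replicates 5 to 8. The groups overlapped, and vehicle replicate 4 was the single high library. The mean was 38.6 ± 25.7 CPM in vehicle and 22.9 ± 6.93 CPM after S1P (SD over 4 libraries each), with a log2 fold change of -0.75 (SE 0.40) that did not pass the test (Benjamini-Hochberg adjusted p = 0.279 in edgeR). Without vehicle replicate 4 the log2 fold change was -0.18 (adjusted p = 0.651 in edgeR). The genes whose centred log2 CPM over the 8 libraries lay closest to that of Eln, by Euclidean distance among 11843 other genes, were Nfkbil1 (0.654), Cfp (0.675) and Lrp5 (0.701). Vehicle replicate 4 was 3.59, 2.58 and 3.51 times the mean of the other vehicle libraries for these genes and 2.94 times for Eln.

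The fibrillins form the microfibril itself. Fbn1 is the main fibrillin after birth and Fbn2 the one best known from embryonic tissue. Fbn2 (chromosome 18, 58168077 to 58369780) held 261, 268, 176 and 241 CPM in vehicle replicates 1 to 4 and 100.3, 98.1, 103 and 87.0 CPM in S1P replicates 5 to 8. All 4 S1P libraries were close together and well below the lowest vehicle library, replicate 3. Its mean fell from 237 ± 41.8 to 97.0 ± 6.95 CPM (SD over 4 libraries each; log2 fold change -1.29, SE 0.14, Benjamini-Hochberg adjusted p = 0.00248 in edgeR). The adjusted p was at most 0.014 over the fits that left out a library in turn, and the log2 fold change ran from -1.40 to -1.22 there.

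Fbn1 (chromosome 2, 125126130 to 125333929) held 1140.2, 1179, 1181 and 1016 CPM in vehicle and 1269, 1678, 1841 and 1275 CPM after S1P. Each S1P library was above each vehicle library, S1P replicates 6 and 7 by the most. The mean was 1129 ± 77.6 CPM in vehicle and 1516 ± 289 CPM after S1P, a 1.34-fold difference that did not pass over all genes (log2 fold change 0.43, SE 0.15, Benjamini-Hochberg adjusted p = 0.121 in edgeR). The adjusted p ran from 0.0737 to 0.311 over 16 other settings, which included leaving out each library.

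The ratio of the fibrillins within a library does not depend on how libraries are scaled. Fbn2 made up 18.6%, 18.5%, 13% and 19.2% of the summed fibrillin counts in vehicle replicates 1 to 4 and 7.32%, 5.53%, 5.29% and 6.39% in S1P replicates 5 to 8. The S1P shares were all under the lowest vehicle share. The log2 ratio of Fbn2 to Fbn1 was -2.27 ± 0.32 in vehicle and -3.95 ± 0.23 after S1P (SD over 4 libraries each), a 3.20-fold lower ratio. An exact two-sided permutation test gave p = 0.0286, the smallest that 4 libraries against 4 can give, and 0.0667 after Benjamini-Hochberg adjustment over the 7 ratios compared here.

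**Figure D3:**
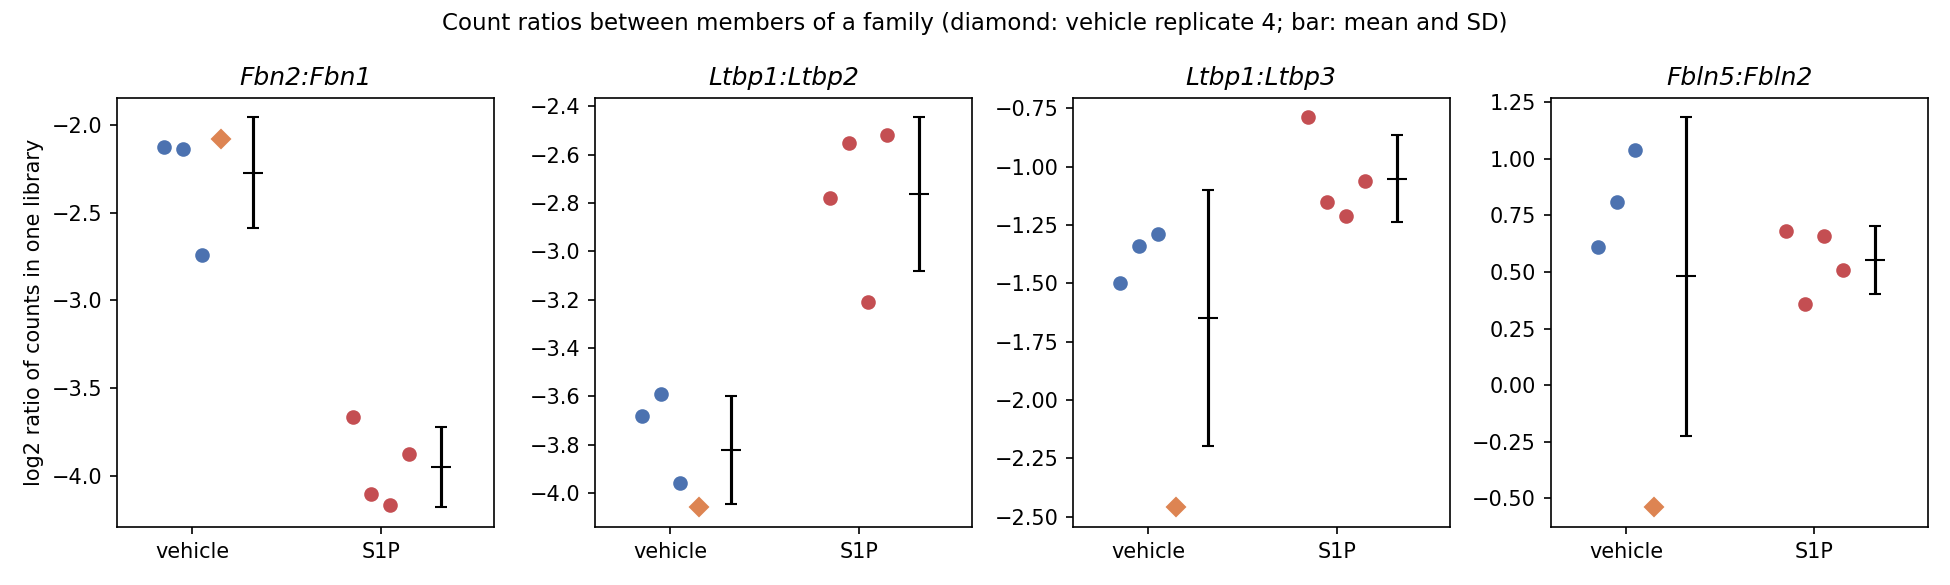
Log2 ratio of the counts of paired family members in each library (vertical axes, own range in each panel), by group, with the mean and SD of 4 libraries; diamonds mark vehicle replicate 4. Fbn2:Fbn1 is lower and Ltbp1:Ltbp2 higher in all S1P libraries than in all vehicle libraries, and Fbln5:Fbln2 overlaps.

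The fibulins are matrix proteins that bind tropoelastin and fibrillin. None of the 3 passed the test. Fbln5, which brings tropoelastin to the microfibril and to the cell surface (chromosome 12, 102984575 to 103057465), held 823, 1379, 978 and 952 CPM in vehicle and 1135, 1577, 1384 and 1209.8 CPM after S1P. Vehicle replicate 2 lay within the S1P range, and the other 3 vehicle libraries lay below it. The log2 fold change was 0.36 (SE 0.18 and Benjamini-Hochberg adjusted p = 0.252 in edgeR). Fbln2, found in elastic vessel walls and basement membranes (chromosome 6, 91162249 to 91222734), held 538, 786, 476 and 1387 CPM in vehicle and 709.5, 1226, 878 and 850.5 CPM after S1P. Vehicle replicate 4 was higher than every S1P library, while vehicle replicates 1 and 3 were lower than all of them. The log2 fold change was 0.20 (SE 0.33, edgeR adjusted p = 0.727), and without vehicle replicate 4 it was 0.61 (edgeR adjusted p = 0.106). Fbln1, a component of the elastin core (chromosome 15, 85036179 to 85117165), was scarce, with 6, 45, 68 and 109 counts in vehicle and 20, 47, 42 and 47 after S1P. Its vehicle libraries spanned the whole S1P range, and the log2 fold change was -0.56 (SE 0.64, edgeR adjusted p = 0.614), or -0.05 without vehicle replicate 4. The 3 ratios between fibulins overlapped between the groups (exact permutation p of 0.686 to 0.943, two-sided). In all but 1 library Fbln5 had more counts than Fbln2, at 56.3% to 67.3% of the sum of both, and in vehicle replicate 4 it had 40.7%.

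Emilin1, a glycoprotein at the boundary of elastin and microfibril that also limits the maturation of TGF-beta (chromosome 5, 31215575 to 31223851), held 80.8, 106, 106 and 433 CPM in vehicle and 74.6, 84.5, 78.9 and 80.8 CPM after S1P. Vehicle replicate 4 was at 4.44 times the mean of the other 3, the highest such ratio of the 10 genes. The S1P libraries lay close together, around the level of vehicle replicate 1 and below the other 3. The log2 fold change was -1.19 (SE 0.49 and Benjamini-Hochberg adjusted p = 0.175 in edgeR), and -0.29 without vehicle replicate 4 (edgeR adjusted p = 0.107). Leaving out that library thus shrank the difference but left its sign.

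Among the latent TGF-beta binding proteins, Ltbp2 fell. Ltbp2 binds microfibrils but, unlike Ltbp1 and Ltbp3, does not carry latent TGF-beta. It lies on chromosome 12 (86123962 to 86217682) and held 683, 782, 1047 and 1296 CPM in vehicle replicates 1 to 4 and 461, 366, 530.0 and 378 CPM in S1P replicates 5 to 8. No S1P library reached the lowest vehicle library. The mean fell from 952 ± 276 to 434 ± 76.7 CPM (SD over 4 libraries each; log2 fold change -1.13, SE 0.22, Benjamini-Hochberg adjusted p = 0.0131 in edgeR). Without vehicle replicate 4 the log2 fold change was -0.95 (edgeR adjusted p = 0.0112). Leaving out S1P replicate 6 or 8 ended the call (edgeR adjusted p = 0.0564 and 0.0547), at log2 fold changes of -1.06 and -1.07.

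Ltbp3, which holds TGF-beta in bone and vessel wall (chromosome 19, 5740704 to 5758732), held 149.9, 165, 165 and 428 CPM in vehicle and 116, 139, 132 and 137 CPM after S1P. All S1P libraries were below all vehicle libraries, by a small step from vehicle replicates 1 to 3 and a large one from replicate 4. The log2 fold change was -0.79 (SE 0.32 and Benjamini-Hochberg adjusted p = 0.167 in edgeR), and -0.29 (SE 0.09, edgeR adjusted p = 0.0605) without vehicle replicate 4. Ltbp1, the best known carrier of latent TGF-beta (chromosome 17, 75404708 to 75792052), held 53.1, 65.1, 67.4 and 77.8 CPM in vehicle and 67.0, 62.7, 57.3 and 66.0 CPM after S1P. Its groups overlapped throughout, with a log2 fold change of -0.06 (SE 0.13, edgeR adjusted p = 0.802), the smallest difference of the 10 genes. Its sign turned without vehicle replicate 4, at 0.032. The count ratio of Ltbp1 to Ltbp2 was 0.0600 to 0.0832 in vehicle and 0.108 to 0.174 after S1P, without overlap, a 2.08-fold higher ratio (exact two-sided permutation p = 0.0286, adjusted over the 7 ratios 0.0667). Ltbp1 to Ltbp3 did not overlap either, at 0.182 to 0.409 in vehicle and 0.433 to 0.580 after S1P (same exact p), a difference of 0.60 in the mean log2 ratio and of 0.33 without vehicle replicate 4. Ltbp2 to Ltbp3 overlapped (exact permutation p = 0.143).

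Spans of some of these genes touch a neighbour in the deposited coordinates: Ltbp2 shares 1164 bases with D030025P21Rik (mean 5.93 CPM), Emilin1 123 bases with Khk (0.965 CPM) and Fbn2 75 bases with Gm17593 (1.02 CPM). The deposited table is named as sense counts, but the sources used here do not say how shared reads were counted. Each neighbour named had a lower mean CPM than its partner.

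The promoters of Ltbp2, which fell, and of Fbn1, whose S1P libraries all lay above vehicle, are shown because these genes of the same microfibril gave log2 fold changes of opposite sign, though that of Fbn1 did not pass the test. Each is the 250 bases before the annotated start from RefSeq (GRCm38.p6, minus strand, given 5′ to 3′), a different build from the deposited coordinates. The promoter table held 8 of the 10 genes. Fbn2 and Eln were not among them, so the promoter of Fbn2, the other gene that fell, was not searched. Capitals mark matches on either strand to a SMAD box (CAGAC) or a GC box (GGGCGG).
Ltbp2, chr12:84876492-84876741: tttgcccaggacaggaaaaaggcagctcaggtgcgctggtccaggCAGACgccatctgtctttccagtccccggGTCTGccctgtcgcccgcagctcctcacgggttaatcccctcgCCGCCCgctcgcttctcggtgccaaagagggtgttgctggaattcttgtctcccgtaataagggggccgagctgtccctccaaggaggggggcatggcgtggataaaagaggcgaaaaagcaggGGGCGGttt
Fbn1, chr2:125506439-125506688: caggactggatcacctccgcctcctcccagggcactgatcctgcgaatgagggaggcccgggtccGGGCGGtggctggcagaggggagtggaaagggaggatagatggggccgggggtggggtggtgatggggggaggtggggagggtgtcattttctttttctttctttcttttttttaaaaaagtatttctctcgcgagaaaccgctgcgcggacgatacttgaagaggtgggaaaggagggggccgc
The Ltbp2 stretch held 2 SMAD boxes and 2 GC boxes, and the Fbn1 stretch 1 GC box and no SMAD box. A SMAD box was not particular to Ltbp2: 6 of the 8 genes had one in at least 1 of their entries, among them Emilin1, Fbln1, Fbln5, Ltbp1 and Ltbp3, which did not pass the test. Counted by entry, 8 of the 11 entries of these genes held a SMAD box and 5 a GC box. Over all 32851 promoter entries of the same length, 42.2% held a SMAD box and 32.7% a GC box. A TEAD motif (GGAATG, in 12.6% of all entries), an AP-1 motif (TGANTCA, 6.75%) and a CArG box (1.47%) were also searched on both strands and matched neither stretch. No marked match overlapped another.

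Levels between genes were compared per kilobase of the longest coding transcript in GENCODE M21, since the annotation behind the counts is not given in the sources used here. In vehicle the order of mean CPM per kilobase was Fbln5 (177), Fbln2 (166.5), Ltbp2 (141), Fbn1 (94.3), Emilin1 (47.0), Ltbp3 (43.7), Fbn2 (21.4), Eln (10.0), Ltbp1 (9.87) and Fbln1 (1.14). Neighbours in this order overlapped in their libraries except Ltbp2 over Fbn1, Ltbp3 over Fbn2 and Ltbp1 over Fbln1. These vehicle means include vehicle replicate 4. Without it the vehicle mean was 97.4 instead of 181 CPM for Emilin1 and 160 instead of 227 CPM for Ltbp3. For Eln it was 26.0 instead of 38.6 CPM, and for Fbln2 600 instead of 797 CPM. The places of these genes in the vehicle order thus rest partly on that library. Whether their places changed with S1P was not tested. After S1P the order was Fbln5 (228), Fbln2 (191), Fbn1 (127), Ltbp2 (64.1), Ltbp3 (25.2), Emilin1 (20.7), Ltbp1 (9.48), Fbn2 (8.79), Eln (5.94) and Fbln1 (0.774). Here Fbn1 stood above Ltbp2 without overlap, the reverse of vehicle, and Fbn2 shared the range of Ltbp1 and Eln. Fbln1 was the lowest of the 10 in both groups and overlapped none of the others.

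**Figure D4:**
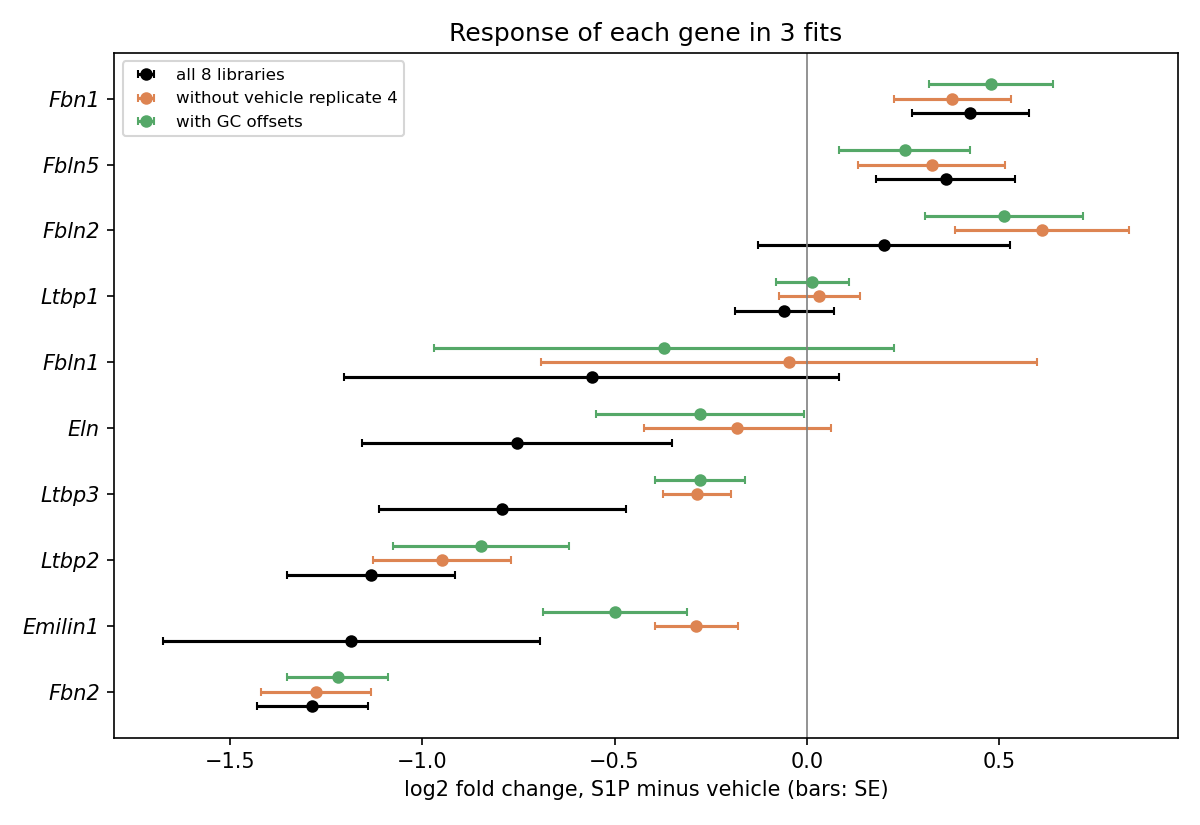
Log2 fold change (S1P minus vehicle, horizontal axis) of each gene with its SE, from all 8 libraries (black), without vehicle replicate 4 (orange) and with each library's GC trend removed (green). Fbn2 stays between -1.29 and -1.22 in the 3 fits, and Emilin1, Ltbp3 and Eln move towards 0.

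Without vehicle replicate 4, 2 of the 10 genes were lower and 0 higher in edgeR, the same Fbn2 and Ltbp2, where 6.05% of all tested genes were lower and 9.49% higher. The median log2 fold change of the 10 genes was then -0.11, with 6 negative and 4 positive, where 49.4% of all tested genes were negative. With the GC trend of each library removed from all 8 libraries, an alternative chosen after the data were seen, Fbn2 (-1.22, edgeR adjusted p = 0.00207) and Ltbp2 (-0.85, edgeR adjusted p = 0.0359) were again the called genes, against 7.12% of all tested genes lower and 8.92% higher. The log2 fold changes of Emilin1 (-0.50), Ltbp3 (-0.28) and Eln (-0.28) in that fit were smaller than with all 8 libraries untreated, and that of Fbln2 was larger (0.51). How far GC content accounts for the values of vehicle replicate 4 was not tested.

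The other genes of the pathway were read from 7 lists. Their counts stand against 2.9% of all tested genes lower and 5.6% higher in edgeR, and 53.9% with a negative log2 fold change. Without vehicle replicate 4 these shares were 6.05%, 9.49% and 49.4%. Among 11 tested proteins of elastic fibre assembly, 0 passed the edgeR test in either direction, and 10 of the 11 had a negative log2 fold change, with a median of -0.79. The 2 with the highest CPM were fibronectin (Fn1, 9185 ± 952 CPM in vehicle and 10802 ± 1256 CPM after S1P) and the proteoglycan biglycan (Bgn, 6733 ± 621 and 5180.0 ± 303 CPM), with Benjamini-Hochberg adjusted p-values of 0.344 and 0.102 in edgeR (SD over 4 libraries). Bgn was lower in every S1P library than in every vehicle library. Without vehicle replicate 4 the list median was -0.36 and 3 members were lower in edgeR: Ltbp4, the latent TGF-beta binding protein of elastic tissue, the proteoglycan Vcan and the fibulin Efemp1 (log2 fold change -1.30, -1.34 and -1.56; edgeR adjusted p = 0.0444, 0.0249 and 0.0187), which are named here after their values were seen. Ltbp4 held 15.1, 11.6, 7.40 and 67.1 CPM in vehicle and 6.86, 4.29, 2.28 and 4.96 CPM after S1P, and so showed the same high vehicle replicate 4 as Eln and Emilin1.

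Of 7 tested genes of elastin crosslinking, 1 fell and 6 did not pass. This was the lysyl oxidase Loxl2 on chromosome 14 (70008778 to 70095840), 4.68-fold lower after S1P, from 25.4 ± 12.7 to 5.42 ± 2.52 CPM (SD over 4 libraries each; Benjamini-Hochberg adjusted p = 0.0108 in edgeR). It held 14.6, 21.7, 43.7 and 21.5 CPM in vehicle and 8.95, 3.42, 5.51 and 3.81 CPM after S1P, without overlap. Lox, the founding lysyl oxidase, had 2578 ± 745 and 3490.4 ± 686 CPM (edgeR adjusted p = 0.265), and its groups overlapped. Bmp1, the protease that activates lysyl oxidases, had 174 ± 81.6 and 100.5 ± 11.1 CPM (edgeR adjusted p = 0.104). Vehicle replicate 4 held 296 CPM of Bmp1, while vehicle replicates 1 to 3 held 124 to 142 CPM. The log2 fold change of Bmp1 was -0.79, and -0.41 without vehicle replicate 4. The list median was -0.15. Without vehicle replicate 4 it was 0.12, and edgeR called 3 lower (Loxl2, Bmp1 and Atp7a) and 1 higher (Loxl3), of which Atp7a and Loxl3 are named after their values were seen. Loxl2 was called in all 8 fits that omitted a library.

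Of 11 tested ADAMTS and processing genes, 1 fell and 10 did not pass. This was the protease Adamts17, from 1.37 ± 0.125 to 0.310 ± 0.277 CPM (SD over 4 libraries each; Benjamini-Hochberg adjusted p = 0.0443 in edgeR). It was near the floor of 3 counts (0.213 to 0.223 CPM) in S1P, and its call was lost when any was left out of vehicle replicates 1, 2 and 3 or S1P replicates 5, 6 and 8 (edgeR adjusted p of up to 0.111), and also with no count filter. Adamtsl3, the gene of the list with the highest CPM, had 437 ± 54.2 and 533.5 ± 39.9 CPM (edgeR adjusted p = 0.18) and passed without vehicle replicate 4 (edgeR adjusted p = 0.0332). Pofut2, which fucosylates such proteins, had 107 ± 59.8 and 71.0 ± 9.63 CPM (SD over 4 libraries each; edgeR adjusted p = 0.27). Its log2 fold change was -0.59, and -0.12 without vehicle replicate 4, which held 197 CPM while vehicle replicates 1 to 3 held 74.6 to 80.4 CPM.

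Of 13 tested entries of elastin degradation and the elastin receptor, 4 fell, 9 did not pass and 0 rose, with a median log2 fold change of -0.53. Glb1 has more than 1 of these entries, at -0.39 and 0.20. The list also counts the protease inhibitors Timp1 (-0.45), Timp2 (-0.64) and Timp3 (-0.41), named after their values were seen. These did not pass in edgeR, and their values were negative like those of the proteases that fell. The gelatinase Mmp9 held 9.38 to 25.6 CPM in vehicle and 1.16 to 3.09 CPM after S1P (log2 fold change -3.13, SE 0.40, Benjamini-Hochberg adjusted p = 0.00321 in edgeR). The gelatinase Mmp2 (chromosome 8, 95351027 to 95377516) held 478 to 616 CPM in vehicle and 349 to 396 CPM after S1P, a 1.52-fold fall, and the membrane protease Mmp14 554 to 822 CPM and 339.8 to 434 CPM, a 1.76-fold fall. Neu1, the sialidase of the elastin receptor complex, fell 1.80-fold. Mmp9 was called in all 8 fits that omitted a library, whereas Mmp2 and Mmp14 lost their calls without S1P replicate 6 or 8 and Neu1 in 5 of these fits (edgeR adjusted p of up to 0.058, 0.0551 and 0.124). Without vehicle replicate 4 the same 4 genes and the cathepsin gene Ctsb, named after its value was seen, were lower.

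The genes of TGF-beta that LTBPs hold and of its receptors went both ways, with 1 of 13 tested genes higher, 2 lower and a median log2 fold change of 0.03. The 13 also include Smad2, Smad3, Smad4, Smad7, Gdf11 and Lrrc32, which are neither such ligands nor receptors. None of these passed in edgeR. Tgfbr2, the type II receptor (chromosome 9, 115993215 to 116084583), held 509.9, 536, 437 and 481 CPM in vehicle and 301, 284, 298 and 311 CPM after S1P. It fell 1.64-fold with well separated groups (log2 fold change -0.72, SE 0.10, Benjamini-Hochberg adjusted p = 0.00428 in edgeR), and was called in all 8 fits that left out a library. The co-receptor Tgfbr3 fell 1.79-fold and the ligand Tgfb3 rose 2.05-fold, from 43.3 ± 7.62 to 88.8 ± 27.5 CPM (edgeR adjusted p = 0.0269 and 0.0272). Each of these 2 calls was kept in only 2 of 8 such fits, the ones omitting vehicle replicate 4 or S1P replicate 5. The span of Tgfb3 shares 5550 bases with Ttll5 (20.8 CPM), and reads of the pair may be split between them.

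None of 7 tested integrins for fibrillin, fibulin or latent TGF-beta passed in edgeR. Itgb1 held 1691 ± 268 and 2202 ± 135 CPM and Itgav 469 ± 98.0 and 499.7 ± 32.4 CPM (SD over 4 libraries each; Benjamini-Hochberg adjusted p = 0.133 and 0.75 in edgeR). The list median was 0.09, and -0.05 without vehicle replicate 4.

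Of 12 tested TGF-beta target genes, 4 rose, 1 fell and 7 did not pass, with a median log2 fold change of 0.41. The gene that fell was Ltbp2. The matricellular gene Ctgf rose 4.40-fold and the actin-binding gene Tagln 6.44-fold, and Acta2 (2.01-fold) and Pmepa1 (1.77-fold), named after their values were seen, rose as well (Benjamini-Hochberg adjusted p of at most 0.037 in edgeR). Ltbp2 thus differed in direction from the other called genes of this list, which was chosen with results of these data known. Ctgf, Tagln and Acta2 were called in all 8 fits that omitted a library, and Pmepa1 in 2 of them.

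**Figure D5:**
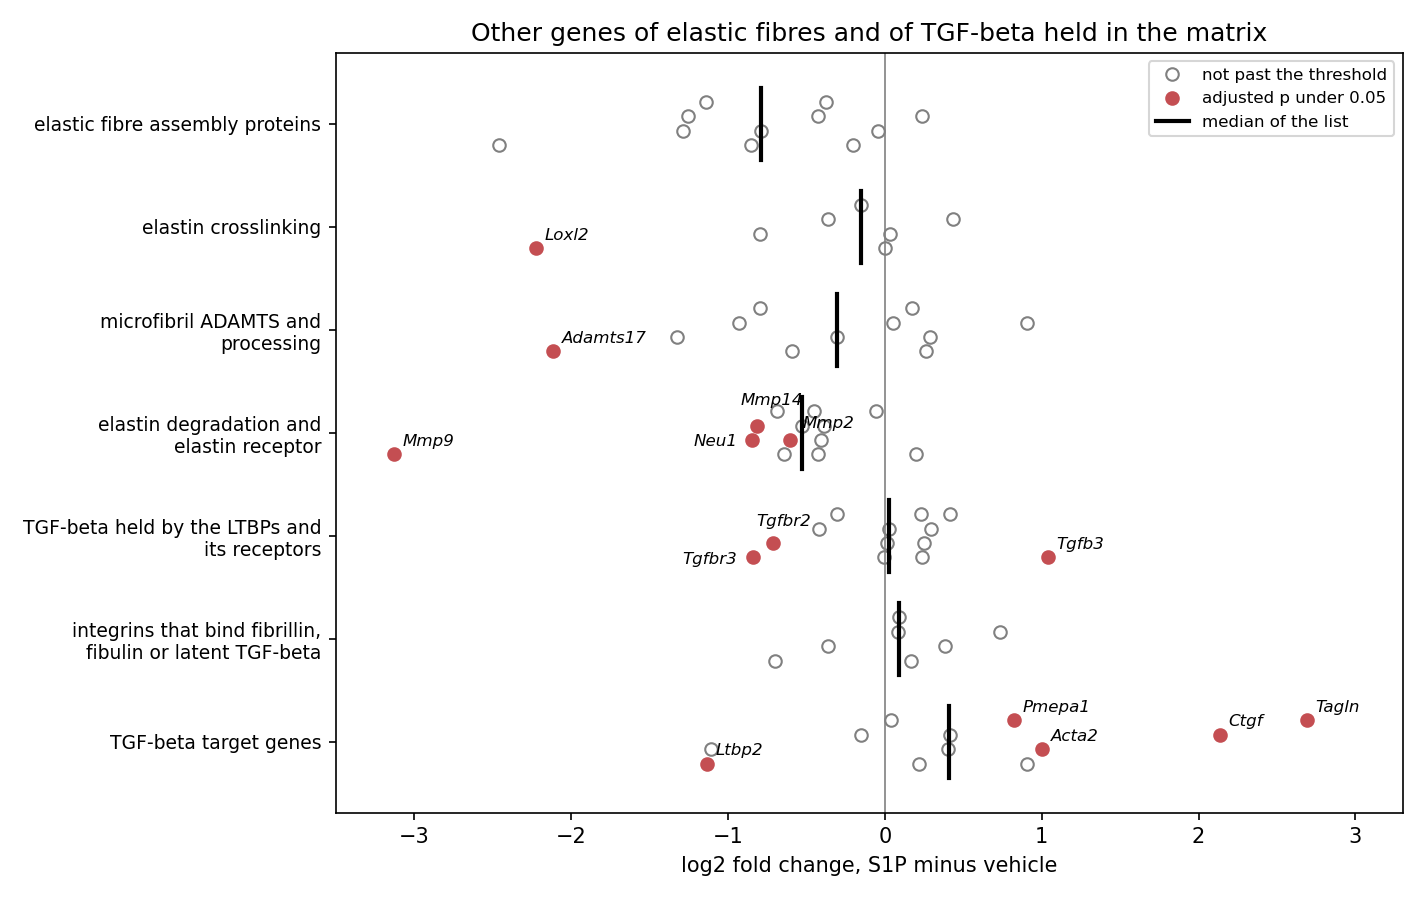
Log2 fold change (S1P minus vehicle, horizontal axis) of the tested genes of 7 lists, with the median of each list as a bar. Each Ensembl entry has 1 point, so that Glb1 has more than 1, and points are filled where the edgeR adjusted p was under 0.05. Called genes of degradation and of crosslinking lie left of 0 (Mmp9 at -3.13, Loxl2 at -2.23), and those of the TGF-beta target list lie right of 0 except Ltbp2.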

How the data were processed

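RNA of 8 libraries of C3H10T1/2 cells was measured. The authors deposited whole-number read counts per Ensembl gene with mm9 coordinates. The aligner STAR 2.5.3a and the build mm9 are named in the submitters' processing notes. The table's name carries the word sense. Counting tool, annotation and the setting behind that word are not named in any source used here. Library totals are almost identical, no source says why, and whether the authors brought the libraries to a common size is not known, so the original depth is unknown. At these totals 3 counts, the most that an observed 0 leaves possible by counting error, equal 0.213 to 0.223 CPM.

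Columns were matched to samples by title. Counts were filtered with filterByExpr (minimum count 10) and scaled by the trimmed mean of M-values (TMM), from which the CPM values come. S1P was tested against vehicle with edgeR 4.0.16 (R 4.3.3, robust quasi-likelihood, treatment as the only term), Benjamini-Hochberg adjusted over all genes, and the procedure was tested on simulated data. There it called 10% of the genes changed 1.5-fold, 66.7% at 2-fold, 92% at 4-fold and 98% at 8-fold. A gene that did not pass may therefore still differ by a small fold. The SE is the absolute log2 fold change divided by the square root of F. Ratios used counts plus 0.5 and an exact two-sided permutation test over 70 regroupings. Alternatives were other scaling, other count filters, DESeq2 1.42.0, limma-voom (limma 3.58.1), a non-robust fit, and leaving out each library. GC offsets (median deviation per library in 20 GC classes) and the list counts without vehicle replicate 4 were added after seeing the data. Length and GC came from 11271 of 11844 tested genes matched by Ensembl ID. The members and lists were chosen with earlier results of these data known. The text names the 10 genes, up to 4 called genes of each list by size or the 2 most abundant where fewer than 2 were called, and the 3 genes closest to Eln. A member of the TGF-beta target list was left out of it, and this gene and a neighbour overlapping a member are not reported here.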

Additional observations from a re-analysis of the deposited data

Results flagged for a closer look

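In groups of 4 libraries, a library was picked out where its gap to the nearest other library, as a share of the range of the group, exceeded Dixon's critical value at the 95% level, which chance gives in about 1 group in 20. Over the 10 genes and both groups this held for 4 values. Vehicle replicate 4 was high for Emilin1 at 433 CPM (gap 0.929 of the range) and for Ltbp3 at 428 CPM (0.945). S1P replicate 7 was high for Eln at 33.2 CPM (0.851), and S1P replicate 5 was low for Fbln1 at 1.44 CPM (0.832). Without S1P replicate 7 the log2 fold change of Eln was -0.99.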

How the results depend on the processing

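The count of the 10 genes called was 2 lower and 0 higher under every alternative run except without S1P replicate 6 or S1P replicate 8, where 1 was lower, so the range on leaving out a library was 1 to 2. Of 160 log2 fold changes compared with those of all 8 libraries, 156 kept direction and side of the threshold. Those that did not were Ltbp2 without S1P replicate 6 or 8 (-1.06 and -1.07) and Ltbp1, which had the other sign with GC offsets (0.014) and without vehicle replicate 4, with a range on leaving out a library of -0.17 to 0.032. The cause was not tested. Over all genes the counts of 663 higher and 344 lower ranged from 333 to 1133 and from 101 to 723 on leaving out a library (lowest without S1P replicate 6, highest without vehicle replicate 4), were 1057 and 843 with GC offsets, and 941 and 797 with DESeq2. Higher genes made up 65.8% of the calls, 55.6% with GC offsets and 54.1% with DESeq2. On leaving out a library, the difference in log2 ratio ran from -1.84 to -1.61 for Fbn2 to Fbn1 and from 0.97 to 1.21 for Ltbp1 to Ltbp2. None of the 7 ratios passed after adjustment, with 0.5 or 1 added to the counts, and 3 had the smallest exact permutation p, 0.0286. A ratio at that p could pass only if most of the 7 reached it, so the adjusted test could hardly be passed with 4 libraries per group. The ratios with a library left out were computed as values, without a test. No paired analysis was run, because the labels name no pairs and the replicate numbers run on from 1 group to the other. Whether vehicle and S1P libraries were paired is not known. Fbln1 had 6 to 109 counts a library, with both extremes in vehicle.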
